A study of Mus musculus with 4 samples.

Results

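Fetal testis was compared with the XX gonad that lacks Wnt4, through the wild-type XX gonad that served as the common partner on every array. All 4 arrays of the series entered, with 2 XY wild-type (Wnt4 +/+) arrays and 2 XX Wnt4 -/- arrays, each hybridised against XX wild-type RNA. The labels call this partner female wild-type on the XY arrays and female Wnt4 +/+ on the Wnt4 -/- arrays. Of 17664 spotted oligonucleotides, the 12264 with a value on all 4 arrays were used. Within replicate 1 the XY or Wnt4 -/- RNA carried Cy5, and within replicate 2 it carried Cy3. Subtracting the Wnt4 -/- log2 ratio from the XY log2 ratio within each dye orientation cancels the dye. It leaves 2 values of XY minus XX Wnt4 -/- per oligonucleotide. The XX wild-type RNA cancels too if the same pool served all arrays, which the labels do not say. Any difference between XX pools would stay in these values. All gonads were taken at 12.0 days post coitum. The labels describe whole gonads dissected from their mesonephroi and pooled from more than 100 embryos of each genotype. The label Wnt4 -/- is read here as a null in every cell of the gonad. XY Wnt4 -/- gonads are not analysed here. The series title names genes of testis-specific vascular development as its purpose.

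The mouse gonad starts as a primordium that can become either organ. In XY embryos Sry switches on Sox9, supporting cells become Sertoli cells, and a large artery forms below the coelomic surface. In XX embryos Wnt4 and Rspo1, a secreted enhancer of Wnt reception, raise beta-catenin signalling and with Fst, a secreted activin antagonist, direct the supporting cells to the ovarian fate. XX gonads without Wnt4 are known for a coelomic vessel, for ectopic steroid-producing cells of adrenal type and for loss of germ cells, and at this stage they do not form testis cords. XY against XX Wnt4 -/- therefore sets a gonad with Sertoli cells beside an XX gonad in which a main ovarian signal is missing.

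Some limits stand before the results. The first is direction: no label says which dye is the numerator. As deposited, XY replicate 1 and Wnt4 -/- replicate 1, which share a dye orientation, correlated at -0.62 over the 12264 oligonucleotides, while the replicate 2 arrays correlated at 0.678. XY replicate 1 was therefore negated, on the basis of the Y-linked gene Eif2s3y and of Xist, the transcript of the inactive X chromosome, so that neither gene is an independent check. After this turn the arrays that share a dye orientation correlated at 0.62 and 0.678, and the XY arrays with each other at 0.0561. Turning both Wnt4 -/- columns would give the shared-orientation correlations the other sign. The Wnt4 -/- arrays correlated with each other at -0.456, which turning both leaves as it is. With no numerator in the labels, the direction of the Wnt4 -/- pair is unsettled. The counts, the list medians and most differences that take the other sign are therefore also given with those columns turned. The second limit is naming, since every gene name rests on exchanging rows and columns within the printed blocks of the array. The mean differences of 499 genes with exactly 2 oligonucleotides had a rank correlation of 0.109 between them, against 0.0599 over 467 genes under the deposited numbering. The third is replication, because the labels leave unsaid whether the RNA of replicates 1 and 2 was extracted separately, so p-values measure a spread between arrays that may be technical. In whole gonads, fewer cells of a type and less RNA per cell cannot be told apart.

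No oligonucleotide passed the test of XY against XX Wnt4 -/- at an adjusted p under 0.05 (limma, 2 differences, Benjamini-Hochberg over 12264), a percent called of 0.0. The lowest adjusted p was 0.0868, for an oligonucleotide with no gene symbol here. At an unadjusted p under 0.05 there were 1138 (9.28%), of which 545 were higher and 593 lower in XY, where 613.2 is 5% of those tested. Dividing each array by its median absolute deviation, which ran from 0.198 to 0.245, brought 45 oligonucleotides under the threshold, 31 higher and 14 lower in XY. By size alone, 103 (0.84%) stood at least 1.5-fold higher in XY in both dye orientations and 98 (0.799%) at least 1.5-fold lower, against 67 (0.546%) past the limit in opposite ways. The differences of both orientations correlated at 0.204 across oligonucleotides, which are not independent replicates. All differences below are log2, XY minus XX Wnt4 -/-, and none passed the test on the centred arrays. Ratios to XX wild type on single arrays, also given below, still hold any effect of the dye. Arrays of one dye orientation deviated from their group means together (r = 0.788).

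The deleted gene and the sex-linked genes are set beside the labels. Eif2s3y and Xist set the sign of XY replicate 1, so they are no check of it. Wnt4 had -1.08 and -1.73 in XY against -0.09 and -0.17 in Wnt4 -/-, a difference of -1.28 ± 0.41 (2.43-fold, limma adjusted p = 0.219). The Wnt4 -/- values near 0 check nothing about the null allele, because the position of the oligonucleotide relative to the deleted part is not known from the sources used here.

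Eif2s3y, a Y-linked translation factor gene, had 2.22 and 2.26 in XY against 1.52 and 0.23 in Wnt4 -/-, where both RNAs on the array are labelled XX. A further Eif2s3y oligonucleotide read 0.64 and -0.45 against 0.69 and -1.31, and the Y-linked list, this gene and Zfy2 (-0.07, or 0.216 with both Wnt4 -/- columns turned), had a median of 0.41 (0.834 with both Wnt4 -/- columns turned). With both columns turned, the difference of the further Eif2s3y oligonucleotide went from 0.41 to -0.215. Over all 7 Y-linked genes tested the median was -0.0658, with -0.0599 and 0.024 in the separate orientations, so as a set they were not higher in XY. Xist had -1.67 and -1.20 in XY against -0.49 and 0.50 in Wnt4 -/- (-1.44 ± 0.37, limma adjusted p = 0.196). Of 5 genes listed as X-linked and escaping inactivation, Xist included, 4 were below 0 in both orientations, where 29.0% of all named genes were. Among the 4 were Kdm6a at -0.61 ± 0.27 and Eif2s3x at -0.45 ± 0.12, and the list median was -0.446. The list median was -0.588 with both Wnt4 -/- columns turned, and Eif2s3x then stood at 0.0808. The 321 X-linked genes had a median of -0.0607, and -0.0686 and -0.0685 in the separate orientations, while the medians of the 19 autosomes lay between -0.0294 and 0.00731.

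The size limit was reached in different ways. Of the 103 higher in XY, 64 were at least 1.5-fold above XX wild type on both XY arrays, and 3 were that far below it on both Wnt4 -/- arrays. Of the 98 lower in XY, 36 were 1.5-fold below XX wild type on both XY arrays and 18 were that far above it on both Wnt4 -/- arrays, with 3 of them doing both. Neither genotype was past the limit on both of its arrays for 36 of the higher and 47 of the lower set. With both Wnt4 -/- columns turned, 49 of the 103 and 30 of the 98 stayed past the limit the same way, and with Wnt4 -/- replicate 1 alone turned, 73 and 51 did.

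**Figure D1:**
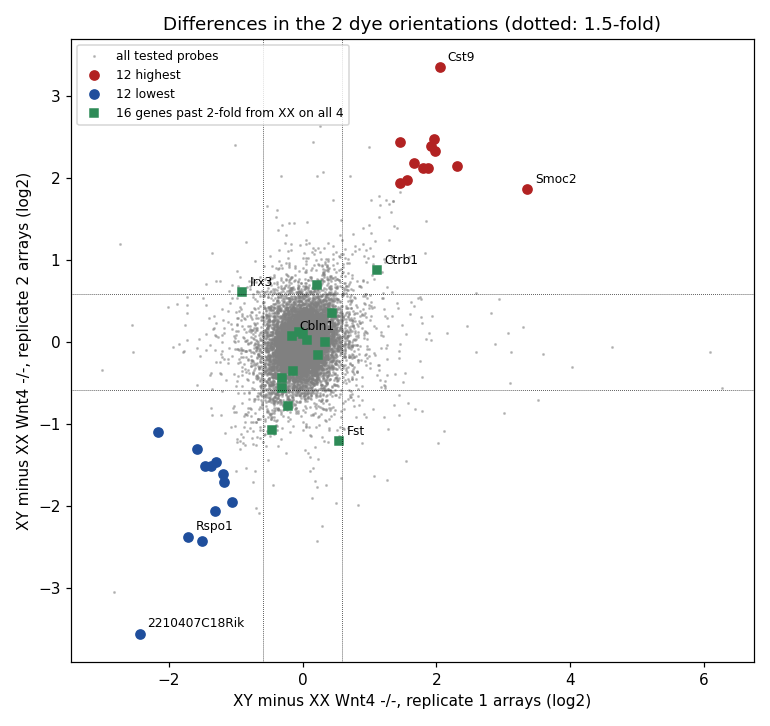
Each point is 1 oligonucleotide, with the log2 difference XY minus XX Wnt4 -/- in the replicate 1 arrays (x axis) against the same in the replicate 2 arrays (y axis), and dotted lines mark 1.5-fold. Red and blue points are the 12 highest and 12 lowest named genes, chosen for lying in those corners, and green squares are the 16 named genes at least 2-fold from XX wild type on all 4 arrays, which lie around the centre except for a few such as Ctrb1, Fst and Irx3.

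Promoters are shown for 3 genes chosen after the values were seen. Cst9 and Ptgds were among the 4 highest of the genes past 1.5-fold in both orientations, while Sp5, a known direct target of Wnt signalling, was far below XX wild type in both gonads. Each window runs from 250 bases before to 50 bases after the RefSeq start on GRCm38.p6: Cst9 at chr2:148834897-148835196 (plus strand), Ptgds at chr2:25469700-25469999 (minus strand) and Sp5 at chr2:70474673-70474972 (plus strand). Sequences are written 5′ to 3′ on the gene's strand. Capitals mark ACAAAG or its reverse complement CTTTGT, the core bound by SOX proteins, and ATCAAAG or CTTTGAT, the core bound by TCF/LEF proteins.
Cst9: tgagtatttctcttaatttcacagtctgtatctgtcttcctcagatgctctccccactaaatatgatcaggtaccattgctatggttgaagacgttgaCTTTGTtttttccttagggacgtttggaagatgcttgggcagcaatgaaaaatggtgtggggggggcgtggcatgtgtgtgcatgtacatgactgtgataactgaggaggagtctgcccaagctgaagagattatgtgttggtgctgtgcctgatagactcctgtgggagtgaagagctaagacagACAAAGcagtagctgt
Ptgds: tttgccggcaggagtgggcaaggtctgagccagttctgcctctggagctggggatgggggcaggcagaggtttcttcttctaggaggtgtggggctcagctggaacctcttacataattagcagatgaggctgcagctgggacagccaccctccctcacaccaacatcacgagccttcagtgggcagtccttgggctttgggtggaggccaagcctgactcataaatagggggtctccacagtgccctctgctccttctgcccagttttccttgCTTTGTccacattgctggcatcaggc
Sp5: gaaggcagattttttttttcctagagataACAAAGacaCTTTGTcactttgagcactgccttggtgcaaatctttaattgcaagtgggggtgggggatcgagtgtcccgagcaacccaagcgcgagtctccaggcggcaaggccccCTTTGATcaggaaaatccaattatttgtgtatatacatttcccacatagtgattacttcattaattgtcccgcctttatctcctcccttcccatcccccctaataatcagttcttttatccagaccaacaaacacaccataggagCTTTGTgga
The Cst9 window held 2 SOX cores, the Ptgds window 1, and the Sp5 window 3 SOX cores and 1 TCF/LEF core, with none of the capitals overlapping another. Counts from 3 windows chosen after the values were seen cannot show whether cores go with a difference, and this was not tested. Of 32851 promoter windows of the same length, 18.7% held the SOX core and 3.73% the TCF/LEF core on either strand. AAGGTCA, the core bound by SF1, was in none of the 3 windows and in 4.72% of all windows. These are matches of letters, not binding sites.

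Among genes that mark Sertoli cells or the early testis, the highest mean difference was that of Cst9, a cystatin-related gene of Sertoli cells. Its log2 ratios to XX wild type were 3.13 and 3.23 in XY, against 1.09 and -0.13 in Wnt4 -/-. The Wnt4 -/- values thus stood far below both XY values, and apart from each other. The mean difference was 2.70 ± 0.92 (SD, n = 2), a 6.51-fold ratio, with a 95% interval from 1.85 to 3.55 (limma adjusted p = 0.196). Ptgds makes prostaglandin D2, a signal that recruits further Sertoli cells. It had 2.54 and 3.34 in XY and 0.57 and 0.86 in Wnt4 -/-, a mean difference of 2.22 ± 0.36 or 4.67-fold (interval 1.76 to 2.68, limma adjusted p = 0.131). The XY arrays of Ptgds were 1.5-fold or more apart from each other, yet the groups did not overlap.

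Mmd2, a membrane protein gene expressed in Sertoli cells, had 2.69 and 2.57 in XY against 0.78 and 0.17 in Wnt4 -/- (difference 2.15 ± 0.34, 4.45-fold). Tesc, which encodes the calcium-binding protein tescalcin, had 2.40 and 2.65 against 0.43 and 0.32 (2.15 ± 0.25, 4.44-fold). For Tmem184a, a transmembrane protein gene, the values were 2.60 and 2.70 against 0.72 and 0.57 (2.00 ± 0.18). In these 3 genes both Wnt4 -/- arrays were above XX wild type, by far less than both XY arrays. Aldh1a1, a retinaldehyde dehydrogenase that makes retinoic acid, had 1.80 and 1.86 in XY against 0.24 and -0.11 in Wnt4 -/- (1.77 ± 0.30, 3.40-fold). Sox9, the transcription factor at the top of the Sertoli programme, had 0.996 and 0.876 in XY against 0.26 and -0.20 in Wnt4 -/-, a difference of 0.90 ± 0.24 (limma adjusted p = 0.276). Amh, the anti-Müllerian hormone made by Sertoli cells, had 0.98 and 0.24 against 0.22 and -0.32 (0.66 ± 0.14). The Amh ranges of the genotypes all but touched, while those of Sox9 were clearly apart.

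Smoc2, which encodes a secreted matricellular protein, stood second among the genes at least 1.5-fold higher in both orientations. It had 3.08 and 3.03 in XY, and -0.28 and 1.16 in Wnt4 -/-, which gives 2.61 ± 1.05 or 6.12-fold (limma adjusted p = 0.202). The wide spread came from the Wnt4 -/- arrays, since both XY values were nearly equal. Tmx3, a disulphide isomerase of the endoplasmic reticulum, had 2.21 and 2.38 against 0.75 and -0.06. Pak3, an X-linked kinase, had 1.91 and 2.30 against 0.46 and 0.36. For both genes XY was high on both arrays, while Tmx3 was past 1.5-fold above XX wild type on 1 of the Wnt4 -/- arrays. Among matrix genes, Fbln2 (fibulin 2) had 1.88 and 2.48 against 0.43 and 0.64, a difference of 1.64 ± 0.27, and Col18a1, the collagen that holds endostatin, had 1.21 and 1.63 against -0.19 and 0.24, a difference of 1.40 ± 0.01.

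**Figure D2:**
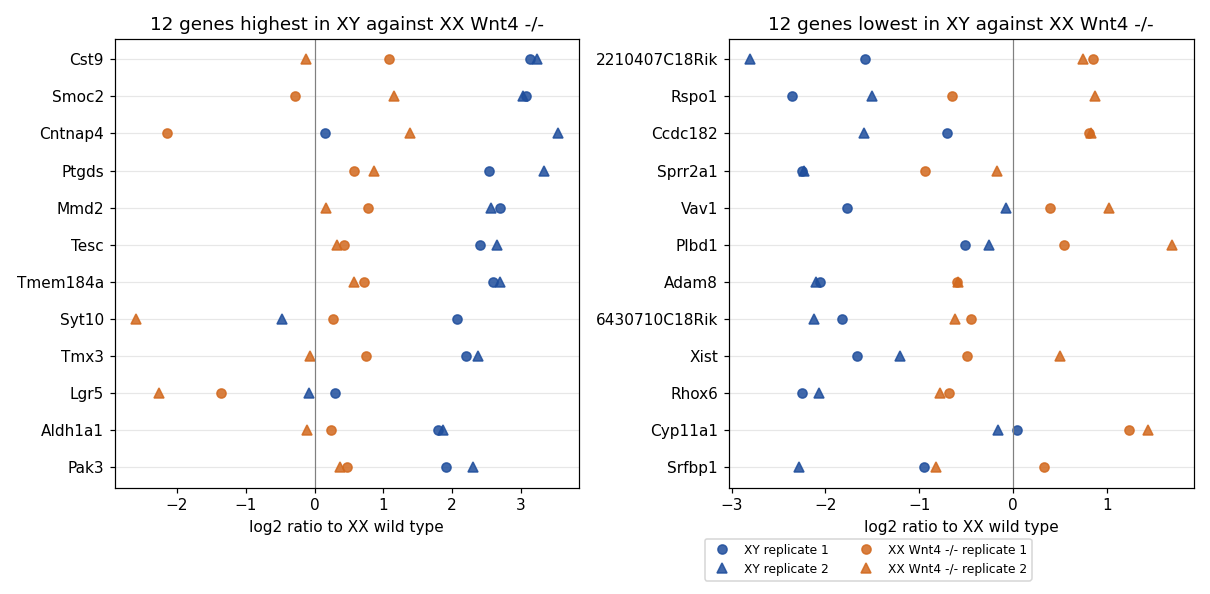
Log2 ratio to XX wild type (x axis) on each of the 4 arrays for the 12 named genes highest (left) and the 12 lowest (right) in XY over XX Wnt4 -/-. Blue is XY, orange is XX Wnt4 -/-, circles are replicate 1 and triangles replicate 2. For Cst9, Ptgds, Mmd2, Tesc and Tmem184a the blue points lie between 2.40 and 3.34, while for Lgr5 and Cyp11a1 it is the orange points that lie away from 0.

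Among the 12 highest, 3 genes had another form. Lgr5, a receptor for R-spondins and a Wnt target, had 0.30 and -0.08 in XY, at the XX wild-type level, and -1.37 and -2.26 in Wnt4 -/-. Its difference of 1.92 ± 0.37 (3.79-fold, limma adjusted p = 0.131) thus lay in the Wnt4 -/- arrays, and it became -1.71 with both Wnt4 -/- columns turned. Cntnap4, a neuronal adhesion protein gene, had 0.15 and 3.54 in XY against -2.15 and 1.39 in Wnt4 -/-. Syt10, a synaptotagmin gene, had 2.07 and -0.48 against 0.27 and -2.60. In both, arrays of one genotype differed from each other by more than the genotypes did within an orientation, and the ranges of the genotypes overlapped. Of the 12 highest genes, 9 stayed past 1.5-fold in both orientations with both Wnt4 -/- columns turned, all but Cntnap4, Syt10 and Lgr5.

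The lowest named value in XY over Wnt4 -/- was that of 2210407C18Rik, an uncharacterised gene on chromosome 11, with -1.57 and -2.80 in XY and 0.86 and 0.75 in Wnt4 -/-. Its difference was -2.99 ± 0.79, a 7.95-fold ratio (interval -3.74 to -2.24, limma adjusted p = 0.131). Ccdc182, also on chromosome 11, had -0.70 and -1.59 against 0.81 and 0.83 (-1.96 ± 0.64). These were the only 2 named genes at least 1.5-fold on opposite sides of XX wild type on all 4 arrays, out of 3 oligonucleotides (0.0245%). The third, with no gene symbol here, had -2.04 and -0.60 against 0.79 and 2.45. With both Wnt4 -/- columns turned, 2210407C18Rik and Ccdc182 would be below XX wild type in both genotypes, with differences of -1.39 and -0.325. The number of named genes on opposite sides was then 65, by definition those on the same side before the turn.

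The ovarian signals came next. Rspo1 had -2.36 and -1.50 in XY, and -0.65 and 0.87 in Wnt4 -/-, so both XY arrays were well below XX wild type while the Wnt4 -/- arrays lay on either side of it. Both genotypes read higher on replicate 2 than on replicate 1, and the part of the dye in these single values was not tested. The difference was -2.04 ± 0.47, a 4.10-fold ratio (interval -2.56 to -1.51, limma adjusted p = 0.131).

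Other genes low in XY kept much of their XX wild-type level in Wnt4 -/-. Adam8, a membrane metalloprotease, had -2.06 and -2.10 in XY against -0.60 and -0.58 in Wnt4 -/- (-1.49 ± 0.04, 2.80-fold). Rhox6, an X-linked homeobox gene of the reproductive cluster, had -2.25 and -2.07 against -0.68 and -0.78 (-1.43 ± 0.19). 6430710C18Rik, an uncharacterised gene, had -1.82 and -2.12 against -0.45 and -0.61 (-1.44 ± 0.10). In these 3 genes both Wnt4 -/- arrays were below XX wild type too, but by less than 1 on the log2 scale. Sprr2a1, a small proline-rich protein gene, had -2.25 and -2.22 against -0.94 and -0.17 (-1.68 ± 0.53). Vav1, a guanine exchange factor of blood cells, had -1.77 and -0.07 against 0.40 and 1.02, and Srfbp1, a binding partner of serum response factor, had -0.95 and -2.28 against 0.33 and -0.82. For both, the XY arrays differed from each other by more than 1.

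Cyp11a1, the enzyme that opens steroid synthesis by cleaving the cholesterol side chain, was the counterpart of Lgr5 among the low genes. It had 0.05 and -0.16 in XY, at the XX wild-type level, and 1.24 and 1.44 in Wnt4 -/-. The difference was -1.39 ± 0.29, a 2.63-fold ratio (interval -1.82 to -0.972, limma adjusted p = 0.196), and it became 1.28 with both Wnt4 -/- columns turned. Plbd1, a phospholipase B-like gene, had the same form, with -0.51 and -0.25 in XY against 0.54 and 1.70 in Wnt4 -/-, and 0.741 once turned. Of the 12 lowest genes, 8 stayed past the limit the same way with both Wnt4 -/- columns turned, all but Ccdc182, Vav1, Plbd1 and Cyp11a1. Over the 12 highest and 12 lowest genes the limma adjusted p ran from 0.131 to 0.276. With the arrays scaled to one spread, 11 of the 12 highest (all but Tmx3) and 10 of the 12 lowest (all but Vav1 and Plbd1) had an adjusted p from 0.026 to 0.047.

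Some genes differed from XX wild type the same way in both gonads. At least 2-fold the same way on all 4 arrays stood 20 oligonucleotides (0.163%), 17 of them named, with 8 genes above and 9 below XX wild type. Both gonads were read against XX wild-type RNA, so this count is a description. With the Wnt4 -/- columns turned, both or replicate 1 alone, it was 0. Turning both gave differences as large as -5.60 for Phlda2, -5.55 for Fst and -5.50 for Irx3. It gave the other sign to Cbln1 (5.03), Thbd (3.16), Tnfrsf19 (-3.66) and Virma (-3.36). Of the 17 genes, 10 had a 95% interval of XY minus Wnt4 -/- that held 0, and 13 had one within 2-fold either way. Over all 12264 oligonucleotides 9.28% had an unadjusted limma p under 0.05, that is an interval without 0. The 17 genes were chosen for their size on the same 4 arrays, so no conclusion is drawn from their share against that over all. The median half-width of the interval over all oligonucleotides was 0.371. These intervals are not adjusted for the number tested, so this is no limit of detection for the adjusted test. That test called none, not even 2210407C18Rik at -2.99 (limma adjusted p = 0.131).

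Cbln1, a secreted cerebellin, had 2.25 and 2.74 in XY and 2.41 and 2.66 in Wnt4 -/-, and its difference of -0.04 had an interval from -0.41 to 0.34. Hic1, a transcriptional repressor, had 1.09 and 1.58 against 1.07 and 1.47 (0.06, interval -0.29 to 0.41). Tcf21, a basic helix-loop-helix factor of gonadal mesenchyme, had 1.09 and 1.42 against 1.14 and 1.29 (0.04, interval -0.32 to 0.40). The 4 arrays of each of these genes lay within about the same range. Kcne1l, a potassium channel subunit gene, was between 1.04 and 1.54 on all 4 arrays. For Gpm6b, a membrane glycoprotein gene, 1 oligonucleotide read between 1.09 and 1.86, but another read 1.01 and 0.0566 in XY against 1.34 and -0.702 in Wnt4 -/-, so these disagreed. Igfbp7, a secreted binding protein of vessels, had 1.94 and 2.38 in XY against 1.73 and 1.69 in Wnt4 -/- (0.46, interval 0.0066 to 0.904). Thbd, the endothelial anticoagulant thrombomodulin, had 1.47 and 1.19 against 1.69 and 1.96 (-0.50, interval -0.971 to -0.0199). Ctrb1, a chymotrypsinogen gene, was above XX wild type in both gonads and more so in XY, with 2.40 and 2.95 against 1.29 and 2.06 (1.0, interval 0.629 to 1.37, limma adjusted p = 0.214).

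Below XX wild type in both gonads stood the ovarian genes Fst and Irx3, the latter a homeobox factor. Fst had -2.48 and -3.40 in XY and -3.03 and -2.19 in Wnt4 -/-, with a difference of -0.33 ± 1.24. Irx3 had -3.58 and -2.07 against -2.68 and -2.68, with a difference of -0.14 ± 1.07. The arrays of a genotype spread so widely that their intervals, -1.43 to 0.768 for Fst and -1.11 to 0.82 for Irx3, allow more than a 2-fold difference. Sp5, the Wnt target whose promoter is shown above, had -2.12 and -1.77 against -1.82 and -1.33 (-0.37, interval -0.722 to -0.0132). Tnfrsf19, a receptor of the tumour necrosis factor family, had -1.81 on both XY arrays against -2.04 and -1.66 (0.04, interval -0.372 to 0.45). Gata2, a zinc finger factor, had -1.94 and -1.89 against -1.63 and -1.33 (-0.43, interval -0.805 to -0.0535). Kitl, the ligand that supports germ cells, had -1.34 and -1.38 against -1.20 and -1.03 (-0.25, interval -0.614 to 0.121). In these 4 genes both gonads were far below XX wild type. The intervals of Tnfrsf19 and Kitl held 0, while those of Sp5 and Gata2 did not, with XY the lower. Phlda2, an imprinted growth regulator, was lowest of all, with -3.08 and -3.27 against -2.62 and -2.21 (-0.76, interval -1.26 to -0.266). Virma, a subunit of the RNA methylation complex, had -1.78 and -1.18 against -2.22 and -1.54 (0.40, interval 0.0513 to 0.75).

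**Figure D3:**
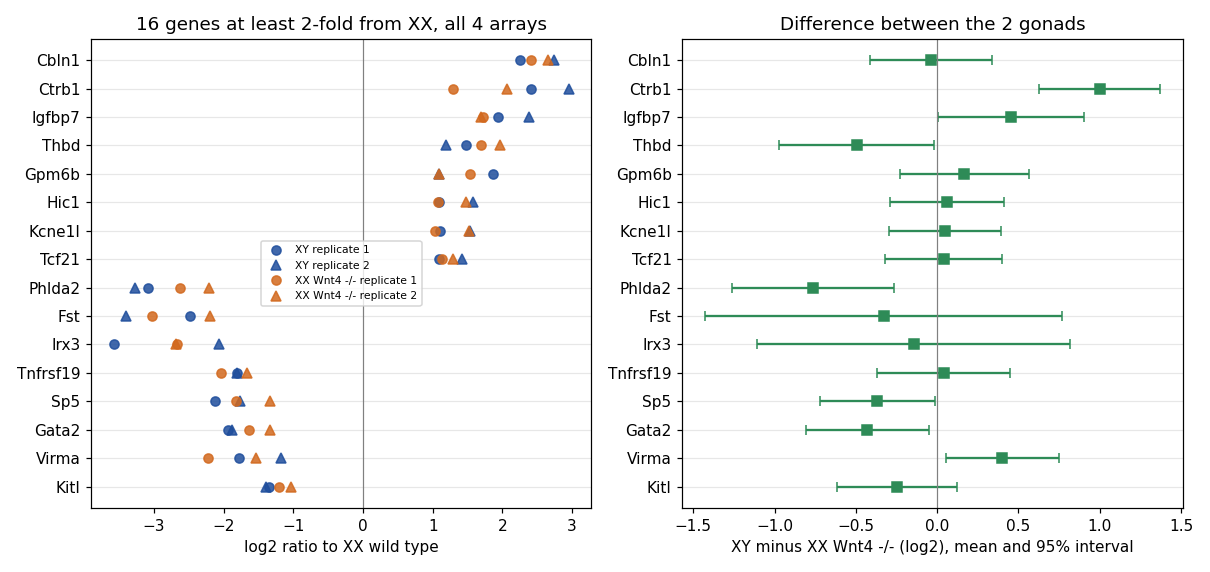
Left, the log2 ratio to XX wild type (x axis) on each array for the 16 named genes at least 2-fold from XX wild type the same way on all 4 arrays, with blue for XY, orange for XX Wnt4 -/-, circles for replicate 1 and triangles for replicate 2. Right, the mean log2 difference XY minus XX Wnt4 -/- with its 95% interval from limma (n = 2), where Ctrb1 at 1.0 and Phlda2 at -0.76 lie farthest from 0 and the intervals of Fst and Irx3 are the widest.

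Gene lists by cell type and pathway were read against all 9757 named genes, probes averaged. Over all of them 0.871% were at least 1.5-fold higher and 0.799% lower in both orientations, 26.4% were above 0 and 29.0% below 0 in both, and the median difference was -0.01. No list gene passed the test. Of 51 genes named from the lists, 17 took the other sign with both Wnt4 -/- columns turned and 7 with replicate 1 alone turned. Turned medians are given below in that order. Of 25 Sertoli and early testis genes, 18 were above 0 in both orientations and 2 below, 10 were at least 1.5-fold higher, and the median was 0.586 (turned, 1.05 and 0.838). Lhx9, an early gonad factor and the lowest of them, stood 1.5-fold lower and is named after its value was seen, with a difference of -0.83. Of 22 genes of ovary supporting cells, 13 were below 0 in both orientations and 3 above, with a median of -0.336. Turned, it was -1.76 and -1.76, much farther from 0. Wnt4, Rspo1, Rhox6, Sprr2a1 and Adam8 made up the 5 past the lower limit, and Lgr5 was past the upper one. Both lists were written with earlier results of these arrays known, so their direction is not independent evidence.

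Most germ cell genes were low in XY relative to Wnt4 -/-. Of 22 measured, 17 were below 0 in both orientations and 2 above, and the median was -0.365, or -0.268 in replicate 1 and -0.449 in replicate 2 (turned, -0.467 and -0.611). Sycp3, a protein of the meiotic chromosome axis, had -0.40 and -1.87 in XY against 0.58 and -0.65 in Wnt4 -/- (-1.10 ± 0.17). Stra8, which retinoic acid induces before meiosis, had -1.74 and -2.18 against -0.71 and -1.38 (-0.92 ± 0.17). For both genes the Wnt4 -/- values were the higher within each orientation, and the ranges overlapped in Sycp3. Tfap2c, a factor of early germ cells, had a difference of -0.85 ± 0.31. The defining germ cell markers Dazl, Pou5f1 and Ddx4 had differences of -0.63, -0.55 and -0.48. Nanog, a pluripotency factor named after its values were seen, ran the other way, with -2.75 and 3.44 in XY against -3.96 and 3.03 in Wnt4 -/- (0.81 ± 0.57, or -0.119 and -3.15 turned). Its arrays differed far more by dye orientation than by genotype. Germ cell number was not measured, and its part in these differences was not tested.

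For steroidogenic cells 10 genes were measured, 6 above 0 in both orientations and 2 below, with a median of 0.423 (turned, 0.913 and 0.253). Ptch1, the receptor and target of hedgehog signals, had 1.27 and 1.02 in XY against 0.43 and -0.12 in Wnt4 -/- (0.99 ± 0.21), and Hsd17b3, which makes testosterone, had 1.20 and 2.34 against -0.14 and 1.73 (0.97 ± 0.52). Cyp11a1 ran the other way, as described. So did Cyp17a1, named after its value was seen, with a difference of -0.73 (turned, -0.296 and -2.40). The marker Star, left out for a missing value, had -0.511 in the replicate 1 orientation, with no replicate. Ptch1 is also on the stroma and matrix list, and Hsd17b3 on the Sertoli and early testis list. Among 5 adrenal-like genes, which include Cyp11a1, Cyp21a1 (21-hydroxylase) had 1.86 and -0.55 against 0.48 and -0.16, with no common sign, Nr0b1 had a difference of -0.27, and the list median was 0.0197. That median ran from -0.318 to 0.117 over the other centrings, scaling and single orientations, taking the other sign in 2 settings, and was 0.816 and -0.158 turned. The marker Mc2r, the receptor for corticotropin, had a difference of 0.05 (interval -0.301 to 0.395), and 1.28 with both columns turned.

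Vessel genes were divided. Of 28 endothelial genes, 10 were above 0 in both orientations and 5 below, none reached 1.5-fold, and the median was 0.0712 (turned, 0.329 and 0.103). Pecam1, the adhesion molecule of all endothelium, had -0.52 and -0.30 in XY against -0.19 and 0.40 in Wnt4 -/- (-0.52 ± 0.26), and Eng, a co-receptor for TGF-beta ligands, had 0.26 and 0.08 against -0.25 and -0.33 (0.46 ± 0.08). Under the turn of both Wnt4 -/- columns Pecam1 was at -0.303 and Eng at -0.119, so that their opposite signs depend on the direction. Of 42 vessel signals, 22 were below 0 in both orientations and 4 above, with a median of -0.0759. Ptn, the growth factor pleiotrophin, had 0.80 and 0.31 in XY against 1.66 and 1.28 in Wnt4 -/- (-0.92 ± 0.08), and Cxcl12, a chemokine that guides endothelial and germ cells, had 0.67 and 0.57 against 1.37 and 1.43 (-0.79 ± 0.12). As read here both were above XX wild type on all 4 arrays and higher in Wnt4 -/-. Once both Wnt4 -/- columns were turned they would be below it there, with differences of 2.03 for Ptn and 2.02 for Cxcl12, and with replicate 1 alone turned 0.742 and 0.585. Adm, the vasodilator adrenomedullin, had -1.79 and -1.50 against -1.47 and -0.32 (-0.75 ± 0.60). With both Wnt4 -/- columns turned the vessel signal median was 0.287, and with replicate 1 alone turned -0.153.

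Macrophage genes lay mostly below 0, with 9 of 15 below 0 in both orientations, none above, and a median of -0.237. The complement genes C1qa, C1qb and C1qc had differences of -0.80, -0.69 and -0.68, and the marker Tyrobp -0.40. For C1qb the arrays read -0.05 and -0.01 in XY against 0.46 and 0.85 in Wnt4 -/-, so XY was at the XX wild-type level. With both Wnt4 -/- columns turned the median took the other sign, 0.334, as did C1qa (0.429), C1qb (0.626), C1qc (0.231) and Tyrobp (0.338), while with replicate 1 alone turned the median was -0.195. Of the other markers, Csf1r is not among the genes tested. Mesonephric duct genes had 8 of 14 below 0 and 1 above (median -0.238, turned -0.153 and -0.512), led by the epithelial genes Cldn7 at -0.66, Wfdc2 at -0.58 and Epcam at -0.47 (0.613 with both turned), while the marker Pax8 was at 0.04. These lists bear on what else the dissected tissue held, and the part of macrophages and of duct epithelium in the other results was not tested. Over 12 genes of red blood cells the median was -0.0278 (turned, -0.0794 and -0.115), with Nfe2 at 0.93, Car2 at -0.42 and the embryonic globin Hbb-y at -0.30 (0.0779 with replicate 1 turned).

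Cell division genes leaned the other way. Of 42, 23 were above 0 in both orientations and 3 below, with a small median of 0.148 (turned, 0.111 and 0.0471). Foxm1, a factor that drives entry into mitosis, had 0.94 and -0.25 in XY against 0.03 and -1.0 in Wnt4 -/- (0.82 ± 0.11, or -0.142 with both turned). The cell cycle inhibitors Cdkn1c and Cdkn1a had differences of -0.80 ± 0.19 and -0.59 ± 0.43, with Cdkn1c at -1.96 and -1.56 in XY against -1.30 and -0.62. Every array had Cdkn1c below XX wild type, and XY more so. Among 29 stress and handling genes, 9 were below 0 and 4 above (median -0.0618, turned 0.0264 and -0.131), and Gadd45b, Nupr1 and Gadd45g had differences of -0.99, -0.68 and -0.52. Nupr1 was at 1.96 with both columns turned.

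The signalling lists had medians nearer 0. Wnt pathway genes and targets had 12 of 38 above 0 and 12 below (median -0.0599, turned -0.0567 and -0.253), with Rspo1, Lgr5 and Wnt4 the farthest out. Activin, BMP and TGF-beta genes had a median of -0.0597 over 31 (turned, 0.118 and -0.131), with none past 1.5-fold in both orientations. Sostdc1, a BMP and Wnt antagonist, had 2.21 and 2.28 in XY against 1.90 and 0.20 in Wnt4 -/- (1.19 ± 1.24), so XY was level while the Wnt4 -/- arrays disagreed. The activin receptor Acvr1 had -0.88 ± 1.44, and the activin subunit Inhbb 0.39 ± 0.59 (-0.255 with replicate 1 turned). The 16 prostaglandin genes had a median of 0.0206 (turned, 0.0563 and -0.106). Beside Ptgds, Hpgd, which inactivates prostaglandins, had 0.38 and 0.15 in XY against 1.39 and 1.17 in Wnt4 -/- (-1.01 ± 0.01), and Pla2g4a, which frees arachidonic acid for their synthesis, had -0.50 ± 0.08. Turning both Wnt4 -/- columns put Hpgd at 1.55, Pla2g4a at 0.571 and Ptgds at 3.65, and Hpgd was at 0.375 with replicate 1 alone turned. Whether Hpgd runs with or against Ptgds thus depends on the direction. Retinoic acid genes had a median of 0.0205 over 13 (turned, 0.108 and -0.0917), with Aldh1a1 high in XY and Dhrs3, a retinaldehyde reductase, at -0.70 ± 0.14 (0.108 with both turned). Stroma and matrix genes, 62 in number, had a median of -0.0029, with 22 above 0 and 18 below. Turned, this median was 0.722 and 0.185.

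**Figure D4:**
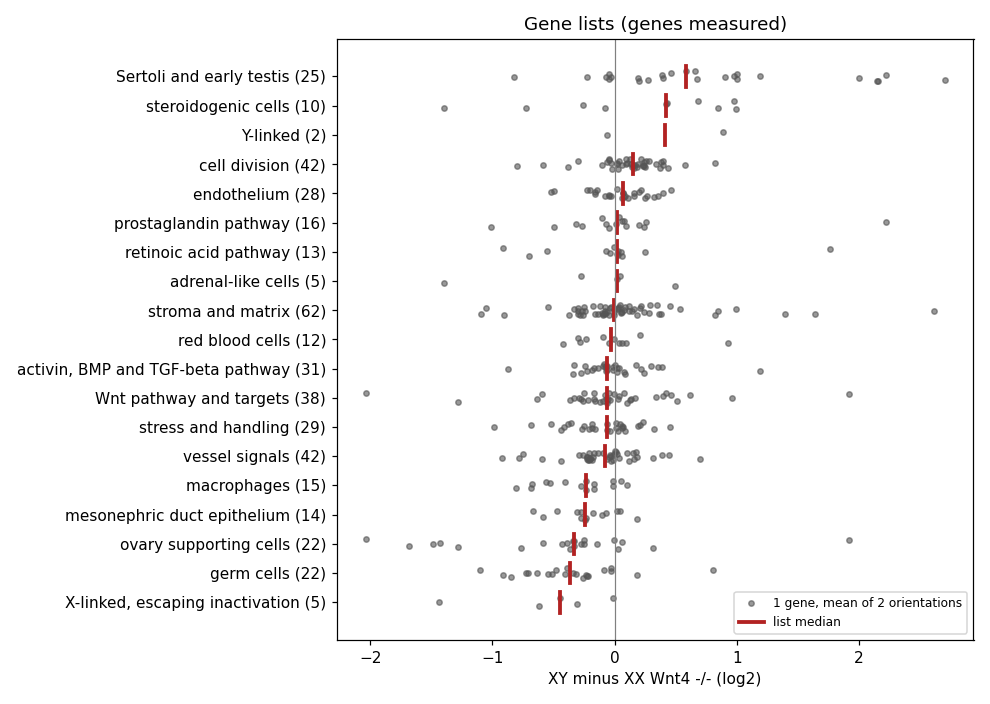
Log2 difference XY minus XX Wnt4 -/- (x axis) of each measured gene in 19 lists, with the number measured in brackets, dots for genes (mean of both orientations) and red bars for list medians. Sertoli and early testis genes have a median of 0.586, germ cell genes -0.365 and genes of ovary supporting cells -0.336, while most pathway lists lie near 0.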

How the data were processed

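Gonad RNA was hybridised on 4 arrays spotted with an oligonucleotide set, 2 per comparison with dyes swapped. The authors deposited 1 log2 ratio per spot, per the value table; base 2 was read from the lowest value of XY replicate 1, -6.64 on 6 spots, the log2 of 0.01. Normalization and numerator are not given in the sources used here. Deposited medians were -0.0019 and -0.0172 (XY) and 0.00840 and -0.0388 (Wnt4 -/-), near 0 by a centring whose method is unknown. Spot intensities were not analysed here. Of the spots, 12866 to 14533 per array had a value. The number of arrays limits the precision.

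XY replicate 1 was negated, each array centred on its median, and block rows and columns were exchanged to match the annotation (14010 oligonucleotides with 1 symbol, 13 with several, 3641 with none; 10442 tested carry 1). limma 3.58.1 (R 4.3.3; lmFit, eBayes, two-sided, Benjamini-Hochberg under 0.05) was run on the 2 within-orientation differences, 1 residual degree of freedom per probe, and tested on simulated data. The orientation is the replicate block. Arrays of one orientation deviated from their group means together (r = 0.788), the pairing coming from the dyes in the labels. XX wild type has no spread of its own here.

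Named were Wnt4, Eif2s3y and Xist, the 12 highest and 12 lowest genes past 1.5-fold in both orientations, 3 genes per list by size, up to 8 genes each way of those 2-fold from XX wild type on all arrays, and those on opposite sides of it. Defining markers of cell types are named besides. The members, the 19 lists (411 of 603 genes tested) and the rules were chosen with earlier results of these data known. Promoters are from RefSeq, GRCm38.p6.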

Additional observations from a re-analysis of the deposited data

Results flagged for a closer look

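2210407C18Rik was below XX wild type on both XY arrays and above it on both Wnt4 -/- arrays, with a difference of -2.99 (log2, XY minus Wnt4 -/-). Ccdc182 lay on opposite sides in the same way, with -1.96. The limma adjusted p of these differences was 0.131 and 0.196, so neither passed the test. The opposite sides depend on the unsettled direction of the Wnt4 -/- columns. With both turned, these genes would be below XX wild type in both genotypes, with differences of -1.39 and -0.325.

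Kdm5d, a Y-linked histone demethylase gene, had no value on XY replicate 2 and so entered no comparison. It read 1.49 on XY replicate 1, against -0.22 and 0.06 on the Wnt4 -/- arrays, and the difference in the replicate 1 orientation was 1.71, with no replicate. Zfy1, a Y-linked gene also left out for a missing value, read 0.559 and -0.186 in XY against 0.544 in Wnt4 -/- replicate 1, a difference of 0.0148.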

How the results depend on the processing

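Under no centring, robust eBayes and the fit with no replicate block, all 43 named oligonucleotides kept their sign and stayed on the same side of the threshold, and none crossed it with centring by printed block. The count called was 0 in these fits, with probes averaged and under each turned direction, except that centring by printed block called 1, the oligonucleotide with no symbol. Arrays scaled to one spread called 45 (including 22 of the named ones; the cause was not tested), and the unadjusted p under 0.05 counted 1138. With no replicate block 0 were called. A single orientation leaves no residual degree of freedom, so no test was run without it.

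The 201 past 1.5-fold became 190 to 232 under the other centrings and scaling, 51 at 2-fold, and 895 to 974 in a single orientation, where only 1 difference has to pass. Turning both Wnt4 -/- columns gave 542, turning replicate 1 alone 597, and leaving XY replicate 1 as deposited 83. The 17 genes at 2-fold from XX wild type on all arrays became 65 at 1.5-fold, and 0 and 0 under both turns. Genes on opposite sides, an alternative added after seeing the data, went from 2 to 65 with both Wnt4 -/- columns turned, and to 1 with XY replicate 1 as deposited. Those 65 are by definition the 65 on the same side at 1.5-fold before the turn, so this is no separate result. With both Wnt4 -/- columns turned, 9 of the 43 took the other sign, those of the 12 highest and lowest being Syt10 (-0.367), Lgr5 (-1.71), Plbd1 (0.741) and Cyp11a1 (1.28). The others were Cbln1, Thbd, Tnfrsf19, Virma and an Eif2s3y oligonucleotide. With replicate 1 alone turned, 4 did.

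With XY replicate 1 as deposited, 31 of the 43 took the other sign. They included Xist 0.229, Eif2s3y -0.854, Cst9 -0.433, Smoc2 -0.464, Ptgds -0.312, Mmd2 -0.537, Tesc -0.249, Tmem184a -0.596, Syt10 -0.109, Tmx3 -0.258, Aldh1a1 -0.0328, Pak3 -0.219 and Ctrb1 -1.40 on one side. On the other were Rspo1 0.323, Sprr2a1 0.569, Vav1 0.138, Adam8 0.575, 6430710C18Rik 0.379 and Rhox6 0.821. The other 12, nearer 0 before, were an Eif2s3y oligonucleotide and 11 genes past 2-fold from XX wild type, such as Igfbp7 (-1.49), Phlda2 (2.32) and Irx3 (3.43). The Sertoli median was then -0.249 and the ovary median 0.698. These reversals follow from the sign of that array.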
